A study of Mus musculus with 28 samples.

Results

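The comparison was of H3K27ac in Thy1+ spermatogonia of Scml2-knockout (KO) and wild-type (WT) mice. It used 4 of the 28 samples of the series: 2 replicate libraries of wild-type cells and 2 of Scml2-KO cells, each with its own table of called peaks. All 4 came from testes of C57BL/6 mice at postnatal day 7, and the labels give no other allele or treatment in either genotype. The extent of the Scml2 deletion, the number of mice per library and whether the replicates were separate animals are not given in the sources used here, so the spread between replicates may be technical. Libraries were made by ChIPmentation, in which a transposase adds sequencing adapters to immunoprecipitated chromatin on the beads. The labels give sedimentation (STA-PUT) or magnetic sorting (MACS) as the ways germ cells were isolated, without saying which was used for these cells. The members were found by merging overlapping peaks of the 4 libraries into 38237 regions and removing the 685 that overlapped a region called in any of the 16 input libraries. Of the 37552 regions left, 1820 had a peak in each KO library and in no WT library (KO-only), 30 had one in each WT library and in no KO library (WT-only), and 10646 had one in all 4.

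SCML2 is a germline-enriched, X-linked Polycomb group protein that associates with Polycomb repressive complex 1 (PRC1), a complex that ubiquitinates histone H2A and compacts chromatin. In male germ cells it is known for silencing somatic and progenitor genes as cells pass into meiosis. H3K27ac, acetylation of lysine 27 on histone H3, marks active promoters and enhancers and occupies the same residue that Polycomb repressive complex 2 (PRC2) methylates. Thy1 is a cell surface protein used to enrich undifferentiated spermatogonia, the stem and progenitor cells of spermatogenesis.

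The replicates were unequal, and KO replicate 1 stood apart in its number of peaks. Peaks numbered 19135 and 17877 in WT replicates 1 and 2, and 34681 and 21286 in KO replicates 1 and 2. KO replicate 1 alone called 16746 regions, which was 44.6% of all regions. Read depth is unknown. The background height of each library, a relative guide to depth, was 0.908 and 0.658 in WT and 0.975 and 0.564 in KO, so in each genotype replicate 1 was the higher. Peak height is the number of fragments piled up at a summit, and fold enrichment is that height plus 1 divided by the background plus 1. The lowest height called was 6 in both replicates 1 and 5 in both replicates 2. The part of depth and of immunoprecipitation efficiency in the results below was not tested.

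**Figure D1:**
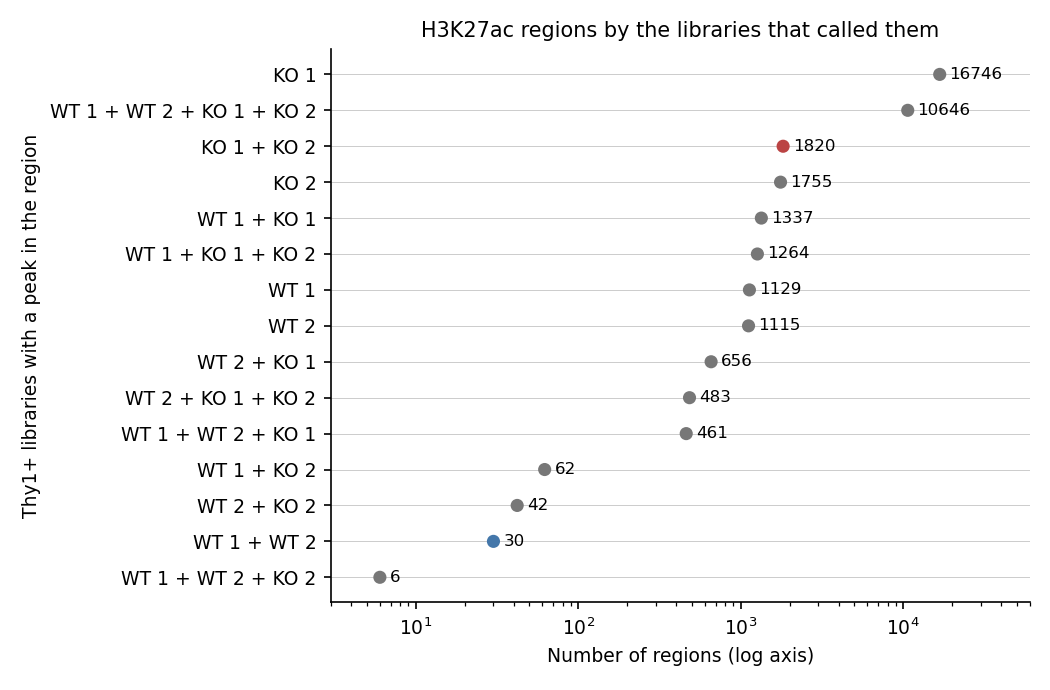
Number of H3K27ac regions (log axis) for each combination of the 4 Thy1+ libraries that called a peak there, with input regions removed. The 1820 regions called in both KO libraries only are in red and the 30 called in both WT libraries only in blue; KO replicate 1 alone called 16746.

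Scml2 was examined first, in every Thy1+ library. It spans positions 161162772 to 161258213 of chromosome X and is read from the + strand. KO replicate 1 had a promoter peak, less than 1 kb from the start, at a height of 11 and a fold enrichment of 6.08, and the other 3 libraries had none. Inside the gene, WT replicate 1 had no peak and WT replicate 2 had 2 of the exon class, at fold enrichments of 4.22 and 9.05. KO replicate 1 had 1 such exon peak at 5.06, and KO replicate 2 had 4, at 5.76, 5.76, 5.12 and 5.12. The exon peaks were narrow, between 145 and 235 bp in these libraries, and none overlapped an input region. The peak at 161237482 to 161237716 in WT replicate 2 was overlapped by 1 peak in each KO library. H3K27ac peaks measure neither Scml2 transcript nor protein, so they did not check the genotype. The RefSeq sequence at the Scml2 start (GRCm38.p6, chrX:161162500-161162799, + strand; 250 bases before to 50 after the RefSeq start, which lies 22 bp from the listed one) is shown because the only promoter call lay in a library labelled KO. That peak begins 156 bp beyond the end of the printed sequence. CpG dinucleotides are in capitals here and in the sequences that follow.
Scml2: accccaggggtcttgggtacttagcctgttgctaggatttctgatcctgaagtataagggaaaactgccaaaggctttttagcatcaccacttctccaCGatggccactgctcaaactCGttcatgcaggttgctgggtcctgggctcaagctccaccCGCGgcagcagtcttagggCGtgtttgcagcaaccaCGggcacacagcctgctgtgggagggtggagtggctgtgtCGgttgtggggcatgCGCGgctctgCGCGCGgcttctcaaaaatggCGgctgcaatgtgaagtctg
It holds 13 CpG dinucleotides, against a median of 7 (quartiles 3 and 20) over the 32851 promoter entries of the RefSeq table, and neither GGGCGG nor its reverse complement CCGCCC (searched on the printed strand); 1 or both occur in 35.7% of those entries.

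At regions present in every library, no H3K27ac change between genotypes passed the test. The largest rise in KO was at the promoter of Atp5k, a subunit of mitochondrial ATP synthase, and the largest fall at the promoter of Mrpl44, a protein of the mitochondrial ribosome. Of the 10646 regions called in all 4 libraries, 0 had an adjusted p under 0.05 (0%; limma with Benjamini-Hochberg adjustment, each library centred on its median). An unadjusted p under 0.05 was reached by 464 (4.36%), of which 107 were higher and 357 lower in KO (3.35% lower). Both this number and its split depended on the scaling. With quantile normalization 401 regions reached that p, 194 higher and 207 lower. Without centring, which moved the median change to 0.47 on the log2 scale, 526 were higher and 0 lower. No region differed by 2 times or more in either direction with centring. The smallest adjusted p was 0.986.

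The 5 regions with the lowest p among those higher in KO did not pass the adjusted threshold (limma adjusted p = 0.986 for each), and at each of them both KO libraries lay above both WT libraries before centring. At the Atp5k promoter (chr5:108433698-108434760) the fold enrichment was 4.72 and 5.43 in WT and 15.7 and 13.4 in KO, a centred log2 difference of 0.99 (SE 0.25) with both replicate numbers in the same direction. At Smarca4, which encodes the ATPase BRG1 of the SWI/SNF chromatin remodelling complex, the promoter (chr9:21615266-21616975) had 11.004 and 8.45 in WT and 28.9 and 17.9 in KO (centred log2 difference 0.70, SE 0.21). Among the others were the promoter of Zkscan3, a zinc finger repressor of autophagy genes (0.81, SE 0.22), and an intronic region of M1ap, a gene of male meiosis (0.75, SE 0.22), as centred log2 differences. Under every alternative fitted, all 5 differences stayed positive, but the alternatives reuse the values that chose these regions.

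The 5 regions with the lowest p among those lower in KO were mostly weak and away from promoters. The Mrpl44 promoter (chr1:79775970-79776613) had fold enrichments of 9.43 and 7.84 in WT and 10.1 and 3.84 in KO, centred log2 differences of -0.68 and -1.32 within replicate numbers 1 and 2 (SE of the mean difference 0.24, limma adjusted p = 0.986). Its low value came from KO replicate 2, while KO replicate 1 was above both WT libraries before centring. The others were an intron of Rab3il1, an exchange factor for Rab GTPases (-0.87), a region upstream of Ntmt1, an N-terminal methyltransferase (-0.86), and intergenic regions listed for the non-coding transcripts 4921509O07Rik (-0.91) and 5830416P10Rik (-0.93), also as centred log2 differences. At those 4 regions the WT fold enrichments lay between 4.83 and 6.81 and the KO ones between 3.84 and 5.57. KO replicate 2 was at 3.84 at each of them, the lowest fold enrichment called in that library, and lower values could not have entered the test. KO replicate 1 lay between 4.56 and 5.57, against a lowest call of 3.54.

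**Figure D2:**
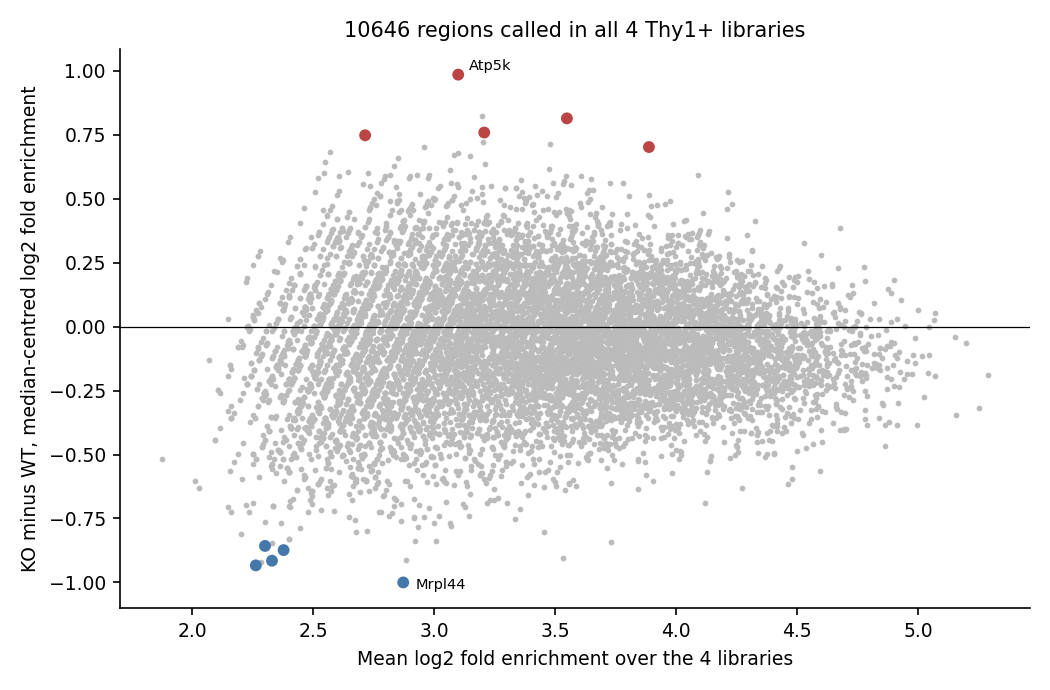
Change in median-centred log2 fold enrichment (KO minus WT, vertical axis) against mean log2 fold enrichment (horizontal axis) at the 10646 regions called in all 4 Thy1+ libraries, 1 point per region. The 5 lowest p-values in each direction are in red (higher in KO) and blue (lower in KO), with the largest change in each direction named; none passed the adjusted threshold, and the 4 blue regions other than Mrpl44 sit at the low end of enrichment.

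The KO-only regions were weaker and shorter than regions called in all 4 libraries, and fewer of them were promoters. KO-only regions made up 4.85% of all regions and WT-only regions 0.0799%. These calls chose the regions, so their numbers and enrichments are a description with no test. Median fold enrichment of the KO-only regions was 5.06 in KO replicate 1 and 5.12 in KO replicate 2, at median heights of 9 and 7, against 16.2 and 9.59 at regions called in all 4 and 5.57 and 7.03 over all regions each library called. The highest KO-only values were 12.7 and 10.2. Of the 1820, 702 (38.6%) reached a fold enrichment of 5 in both KO libraries. The weakest members lay at the call limit itself, with the lower of the 2 KO values at 3.54, and a region that no WT library called has no WT value, so how far below the limit WT lay is unknown. Median length was 426.5 bp for KO-only regions, 329 bp for all regions and 1487 bp for regions called in all 4.

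By the deposited location class, 786 KO-only regions (43.2%) were intronic, 363 (19.9%) promoter, 347 (19.1%) intergenic, 201 (11.04%) upstream and 123 (6.76%) exonic. Over all 37552 regions the promoter class held 37.8% and the intron class 32.8%, and among regions called in all 4 libraries it was 84.9% and 4.75%. The X chromosome carried 29 KO-only regions (1.59%), against 1.71% of all regions. Of the KO-only regions, 25.4% were within 5 kb of a region called in all 4, as were 25.04% of all regions not called in all 4. The 30 WT-only regions comprised 18 intronic, 6 intergenic, 3 upstream and 3 promoter regions, with a median length of 257 bp, and 2 of them reached a fold enrichment of 5 in both WT libraries.

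**Figure D3:**
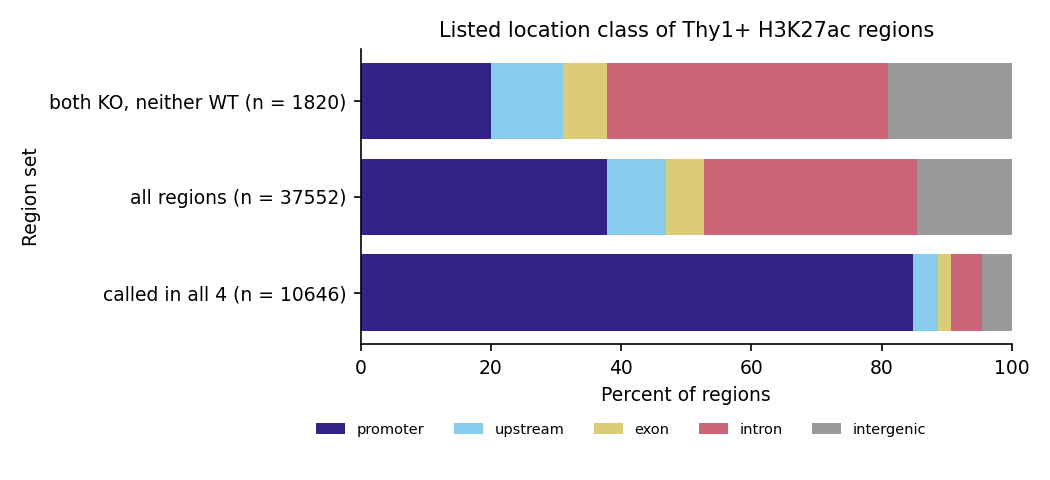
Share of regions (percent, horizontal axis) in each deposited location class for KO-only regions, for all regions, and for regions called in all 4 Thy1+ libraries. Introns hold 43.2% of the KO-only regions and promoters 84.9% of the regions called in all 4.

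The inequality of 1820 against 30 moved with the number of peaks per library. With the 17877 highest peaks kept in each library, 624 regions were KO-only and 115 WT-only, and 562 (30.9%) of the 1820 stayed KO-only. The promoter class then held 25.96% of KO-only and 31.3% of WT-only regions, against 53.3% of all regions. Without KO replicate 1, 4983 regions were called in KO replicate 2 and neither WT library, and without KO replicate 2, 18857 were called in KO replicate 1 and neither WT library. KO libraries held 1.47 times as many peaks as WT (log2 ratio 0.55; KO and WT mean log2 peak number 14.7 ± 0.498 and 14.2 ± 0.0694, SD, n = 2 each). The 2-sided exact permutation test gave p = 0.333, the smallest that 2 against 2 can give, and an adjusted p of 0.667 over the 5 single-value tests. The log2 ratio was 0.20 without KO replicate 1 and 0.91 without KO replicate 2. The promoter-class share of peaks was 66.4% and 70.1% in WT and 40.5% and 62.8% in KO, a difference of -16.6 percentage points (exact permutation p = 0.333, adjusted p = 0.667). With the same number of peaks per library that difference was -3.75 points, without KO replicate 1 it was -5.44 points, and without KO replicate 2 it was -27.7 points.

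The 15 KO-only regions with the highest enrichment included promoters, introns and upstream regions, and the genes listed for them had varied roles. The first was an intron of Akap13 (chr7:75643239-75645005), which encodes a kinase anchoring protein. Its fold enrichment was 9.11 and 8.95 in the KO libraries, at heights of 17 and 13, and no peak was called there in either WT library. A region upstream of Rab6b (chr9:103108294-103108616), a Golgi GTPase, had 10.1 and 8.31, and one upstream of Flot1 and Ier3, 8.61 and 8.31. Flot1 encodes a membrane scaffold protein and Ier3 is an immediate early gene. An intergenic region listed for Tank, a regulator of NF-κB signalling, had 8.10 and 8.31. The largest value in KO replicate 1 among the 15 was upstream of Chrna1, a subunit of the muscle acetylcholine receptor, at 11.6, where KO replicate 2 had 7.67.

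Introns of Map3k1, a kinase of the JNK pathway, and of Itpr1, a calcium channel of the endoplasmic reticulum, had fold enrichments of 7.59 and 7.67, and of 7.59 and 8.31, in KO replicates 1 and 2. Promoters among the 15 were those of Sema7a, a membrane-anchored semaphorin (8.61 and 7.67), Prickle2, a planar cell polarity protein (8.61 and 7.67), Meis3, a homeobox transcription factor (7.59 and 7.67), Ccndbp1, which binds cyclin D (7.09 and 7.67), and the non-coding D930032P07Rik (9.11 and 7.67). The remaining 3 were an exon of the non-coding 1810019D21Rik, an intron of D5Ertd579e and a region upstream of Ppp1r2, an inhibitor of protein phosphatase 1, and Mir1195. All 15 stayed KO-only with the same number of peaks per library and with a minimum fold enrichment of 5. The 15 were ranked by the lower of their 2 KO values, so neither KO library could be low at them. That they stayed KO-only follows from this ranking and is no further support.

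The promoter sequences of Meis3 and Sema7a are shown as CpG-rich promoters with a KO-only region at or beside the start, and that of Ptprc as a CpG-poor one. Peaks of both KO libraries cover the whole Meis3 sequence. At Sema7a the KO peaks begin 19 and 113 bp beyond the end of the printed sequence. At Ptprc the KO replicate 1 peak of 5.06 shares 100 bases with the printed sequence, and no KO replicate 2 peak overlaps that peak. The KO replicate 2 peak of 4.48 lies 569 bp from the sequence. It overlaps another KO replicate 1 peak, of 4.56, which lies 265 bp from the sequence. All are from RefSeq on GRCm38.p6: Meis3 at chr7:16175145-16175444 on the + strand, Sema7a at chr9:57939862-57940161 on the + strand and Ptprc at chr1:138175077-138175376 on the − strand.
Meis3: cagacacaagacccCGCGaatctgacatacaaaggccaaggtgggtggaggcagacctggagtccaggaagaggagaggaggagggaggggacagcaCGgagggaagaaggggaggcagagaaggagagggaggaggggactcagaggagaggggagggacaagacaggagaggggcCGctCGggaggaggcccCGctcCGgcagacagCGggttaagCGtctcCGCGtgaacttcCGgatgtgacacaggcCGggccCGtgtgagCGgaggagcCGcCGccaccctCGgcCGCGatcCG
Sema7a: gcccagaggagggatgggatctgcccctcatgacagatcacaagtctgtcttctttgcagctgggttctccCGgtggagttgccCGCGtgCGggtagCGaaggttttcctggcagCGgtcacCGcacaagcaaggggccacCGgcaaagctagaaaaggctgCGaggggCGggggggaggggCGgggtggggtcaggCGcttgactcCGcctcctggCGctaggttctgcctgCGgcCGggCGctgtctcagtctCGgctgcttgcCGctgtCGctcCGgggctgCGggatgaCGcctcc
Ptprc: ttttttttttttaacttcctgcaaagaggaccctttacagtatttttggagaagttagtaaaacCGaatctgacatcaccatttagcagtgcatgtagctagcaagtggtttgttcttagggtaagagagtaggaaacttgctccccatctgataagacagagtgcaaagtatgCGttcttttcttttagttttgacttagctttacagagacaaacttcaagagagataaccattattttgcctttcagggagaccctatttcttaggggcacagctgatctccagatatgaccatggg
They hold 21, 23 and 2 CpG dinucleotides. GGGCGG occurs 2 times in the Sema7a sequence, on the printed strand, and neither it nor CCGCCC occurs in the Meis3 or Ptprc sequence. Of the 255 gene promoters called in KO only, 159 (62.4%) matched a RefSeq sequence starting within 100 bp of a listed start, against 67.8% of all genes and 72.2% of promoters called in all 4. These shares are under the 80% required here, so a comparison of base composition over the set is void.

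**Figure D4:**
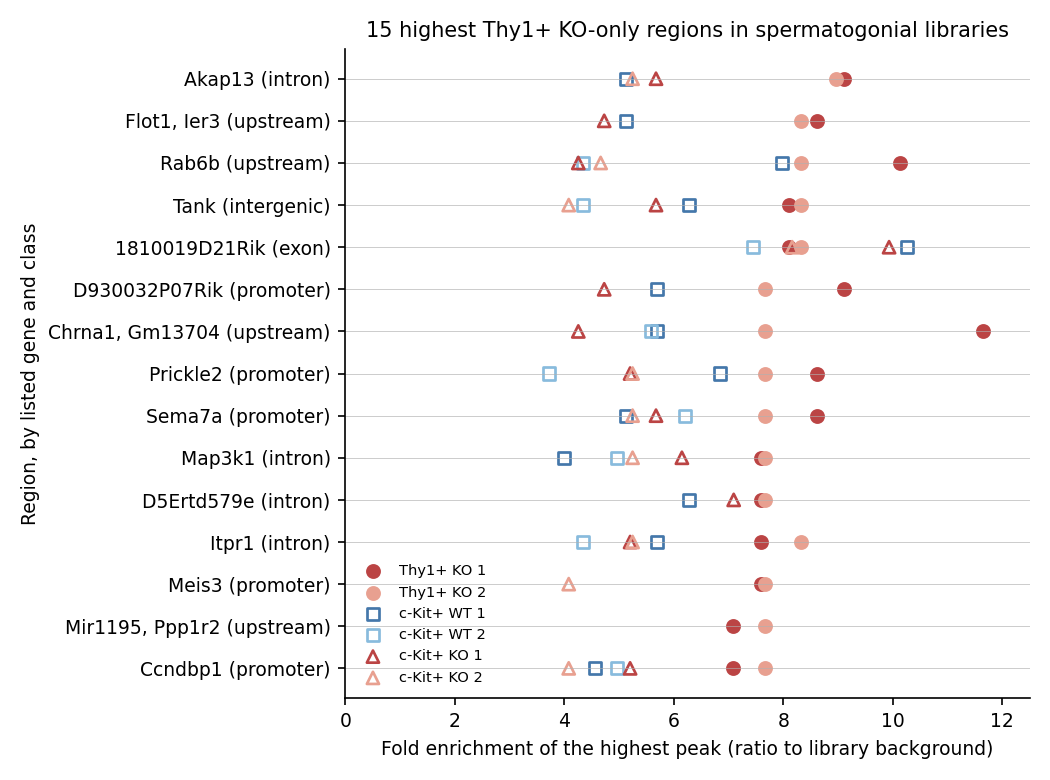
Fold enrichment (horizontal axis) of the 15 KO-only regions with the highest lower value, named by listed gene and class, in both Thy1+ KO libraries (filled circles) and, where called, in the c-Kit+ WT (open squares) and c-Kit+ KO (open triangles) libraries. Neither Thy1+ WT library has a value, and 14 of the 15 have a peak in at least 1 c-Kit+ library. No c-Kit+ peak was called at 35.2% of all KO-only regions, 42.6% of all regions and 0.770% of regions called in all 4.

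Some genes held several KO-only regions, and those with the most had many regions of any kind. A single gene symbol was listed for KO-only regions at 1396 genes, and 69 of these had 3 or more. No gene had 3 or more WT-only regions, of which there were 30 in all. Itpkb, an inositol trisphosphate kinase, had 6 KO-only regions of its 26, and Tns1, the focal adhesion protein tensin, had 6 of 54. Genes with 5 were Col5a1 (a fibrillar collagen), Cuedc1, Pitpnm2 (a phosphatidylinositol transfer protein), Sept9 (a septin of the cytoskeleton) and Zfp36l1 (an RNA-binding protein that promotes mRNA decay). In that order they had 29, 25, 27, 51 and 57 regions. Over all regions 4.85% were KO-only. At each of these genes KO replicate 1 held the most regions. Of the 1396 genes, 833 (59.7%) also had a region called in all 4 libraries, against 65.5% of the 12310 genes with any region.

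WT-only regions were few and weak. The highest was an intron of the non-coding G630055G22Rik, at fold enrichments of 6.81 and 6.03 in WT replicates 1 and 2, followed by an intron of 4930451C15Rik (chr16:17554730-17555022) at 5.24 and 6.03. Introns of Wasf2, a regulator of actin assembly (5.24 and 4.83), and of Cish, a suppressor of cytokine signalling (5.76 and 4.83), were next among single genes. A second intronic site of Itpr1 (chr6:108305100-108305326; 4.72 and 4.83) was WT-only, so this gene held both kinds. A site upstream of Gata4, a transcription factor of Sertoli and other somatic gonadal cells (chr14:63246807-63247065), had 5.24 and 4.22 in WT, and in c-Kit+ cells it was called in both genotypes, at 12.0 and 5.58 in WT and 12.8 and 4.66 in KO. This site lies just beyond the end of the Gata4 promoter region called in all 4 Thy1+ libraries (chr14:63244196-63246792). That region had 9.43 and 6.03 in WT and 11.6 and 9.59 in KO. The others were upstream of C1qtnf6 and Sstr3, in introns of Prr5 and Relt, and an intergenic region listed for Rab4a.

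The genes of Polycomb complexes themselves carried shared promoter peaks in both genotypes. Promoters were scored by a peak within 1 kb of a start listed under that gene alone, for 17867 genes. Over these genes, 9554 promoters (53.5%) were called in all 4 libraries, 255 (1.43%) in KO only and 2 (0.0112%) in WT only, and 5592 in none. With the same number of peaks per library, 124 (0.694%) were KO-only. Of the 255, 216 held a KO-only region, at 30 the KO peaks lay in separate regions within the window, and at 9 a region with a WT peak beyond the window reached into it. The 2 WT-only promoters were those of Msh4 and Scara3, named after their values were seen, and in both the WT peaks lay in separate regions. Of 23 listed PRC1 genes, 18 were called in all 4 libraries and 0 were KO-only or WT-only, while Scml2 and Cbx7 were called in KO replicate 1 alone. The strongest, with values in WT 1, WT 2, KO 1 and KO 2, were Scmh1, a relative of Scml2 (20.4, 16.9, 30.9 and 17.9), the E3 ligase genes Rnf2 (16.8, 16.3, 26.3 and 16.6) and Ring1 (20.4, 12.7, 26.8 and 14.1), and Pcgf3 (15.7, 12.7, 25.3 and 21.1), which marks a variant PRC1. KO replicate 1 was highest at each, and KO replicate 2 lay within the WT range at Scmh1, Rnf2 and Ring1. The median centred log2 difference of the 18 was -0.16, against -0.06 over all 9587 promoters in such regions, and 0 of the 18 passed the adjusted threshold (1 at an unadjusted p under 0.05, lower in KO: Kdm2b).

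Among 14 genes of PRC2 and the H3K27 demethylases, 12 promoters (85.7%) were called in all 4 libraries, against 53.5% over all genes. Eed, a PRC2 core subunit, had fold enrichments of 16.2 and 14.5 in WT and 23.8 and 19.8 in KO. Rbbp4, a histone chaperone in PRC2, had 19.4 and 16.3 in WT and 27.3 and 17.9 in KO, and the accessory subunit gene Mtf2 14.7 and 12.1 in WT and 22.8 and 19.2 in KO. Kdm6b, which encodes an H3K27 demethylase, was called in KO only, at 5.57 and 7.03 (1 of 14, 7.14%, against 1.43% over all genes). It was the only KO-only promoter of the lists that stayed so with the same number of peaks per library. In c-Kit+ cells it had a peak in KO replicate 1 (3.78) and in no other library. The 12 shared promoters had a median centred log2 difference of -0.05, and 0 of the 12 had an unadjusted p under 0.05.

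Most promoters of developmental regulators known as Polycomb targets had no called peak in any library. Of 35, 4 promoters were called in all 4 libraries (Hoxd8, Tbx2, Wnt5a and Gata2), 23 in none, and 0 in KO only or WT only, against 1.43% in KO only over all genes. Of the 67 regions listed for these genes at any location, 7 (10.4%) were KO-only, against 4.85% of all regions. Hoxd8, a homeobox gene, had fold enrichments of 12.1 and 9.05 in WT and 20.3 and 11.5 in KO. Wnt5a, a secreted Wnt ligand, had 5.76 and 4.83 in WT and 14.7 and 7.67 in KO, a centred log2 difference of 0.47 (SE 0.22, limma adjusted p = 0.986). Promoters called numbered 8 and 7 in WT and 12 and 6 in KO, so KO replicate 1 was the highest, as over all genes, and KO replicate 2 the lowest.

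Germ cell genes separated the KO replicates from each other. Of 24 promoters of undifferentiated spermatogonia, 10 and 7 were called in WT and 16 and 5 in KO. Of 26 meiotic prophase promoters, 15 and 11 were called in WT and 19 and 6 in KO, and of 18 for differentiating spermatogonia and meiotic entry, 10 and 10 in WT and 13 and 9 in KO. Of 18 spermatid promoters, 4 and 2 were called in WT and 3 and 2 in KO. Over the 66 genes of the first 3 lists that are on no somatic list, 33 and 27 were called in WT and 46 and 19 in KO. KO replicate 2 was the lowest of the 4 although it called 10502 promoters over all genes, more than the 10085 of WT replicate 2. With the same number of peaks per library the counts were 33 and 27 in WT and 38 and 17 in KO, an alternative chosen after seeing the data.

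At 7 of the 66 germ cell promoters (10.6%), every library but KO replicate 2 had a peak, against 224 of 17867 genes (1.25%). None of the 66 lacked a peak in KO replicate 1 alone, WT replicate 1 alone or WT replicate 2 alone. Over all 17867 genes those counts were 1, 150 and 487 in that order, so few were to be found among 66. WT replicate 2 alone lacked a peak at 4 of the 74 somatic promoters. Promoters of other lists lacked a peak in KO replicate 2 alone too: the Sertoli cell genes Sox9 and Wt1 (2 of 74 somatic genes, 2.70%), the PRC1 genes Pcgf6 and Cbx2 (2 of 23) and the developmental regulator Foxc1 (1 of 35), also named after their values were seen. Sycp1, a protein of the synaptonemal complex, had fold enrichments of 11.004 and 7.24 in WT, 16.7 in KO replicate 1 and no peak in KO replicate 2. Ddx4, the germ cell RNA helicase also called VASA, had 7.34, 5.43 and 8.10 in the same 3 libraries, and Sycp3, another synaptonemal complex protein, 5.24, 3.62 and 6.58. Zbtb16, the PLZF factor of undifferentiated spermatogonia, had 5.24, 6.03 and 8.10, and the others were Itga6, Syce2 and Tcfl5. These genes were chosen after their values were seen, from the lists. The sequences of 3 of their promoters are shown because the genes define germ cells: Ddx4 at chr13:112652261-112652560 on the − strand, Sycp1 at chr3:102936051-102936350 on the − strand and Sycp3 at chr10:88459337-88459636 on the + strand, from RefSeq on GRCm38.p6.
Ddx4: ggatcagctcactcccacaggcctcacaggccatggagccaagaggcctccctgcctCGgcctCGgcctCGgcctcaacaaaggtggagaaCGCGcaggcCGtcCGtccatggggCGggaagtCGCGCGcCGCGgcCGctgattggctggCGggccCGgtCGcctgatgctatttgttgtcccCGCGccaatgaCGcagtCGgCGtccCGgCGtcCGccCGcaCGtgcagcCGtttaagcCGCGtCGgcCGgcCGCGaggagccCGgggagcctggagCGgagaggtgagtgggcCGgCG
Sycp1: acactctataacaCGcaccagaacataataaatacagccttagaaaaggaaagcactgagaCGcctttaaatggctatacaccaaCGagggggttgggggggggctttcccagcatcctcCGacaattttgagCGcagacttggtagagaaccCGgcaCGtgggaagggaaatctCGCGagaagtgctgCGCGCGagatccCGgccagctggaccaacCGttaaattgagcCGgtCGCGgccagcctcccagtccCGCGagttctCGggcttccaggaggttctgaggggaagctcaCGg
Sycp3: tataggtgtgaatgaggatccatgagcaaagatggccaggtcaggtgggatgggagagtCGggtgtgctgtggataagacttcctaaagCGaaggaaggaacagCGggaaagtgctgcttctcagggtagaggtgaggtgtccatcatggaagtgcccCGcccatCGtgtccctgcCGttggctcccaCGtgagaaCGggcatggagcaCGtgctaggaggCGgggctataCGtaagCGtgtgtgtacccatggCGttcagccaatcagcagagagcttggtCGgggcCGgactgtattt
They hold 38, 21 and 15 CpG dinucleotides, more than the table's median of 7. GGGCGG or CCGCCC occurs in the Ddx4 and Sycp3 sequences and not in that of Sycp1.

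Some germ cell promoters were called in all 4 libraries. Dazl, an RNA-binding protein of germ cells, had fold enrichments of 7.34 and 7.24 in WT and 13.2 and 7.67 in KO. Etv5, a factor of stem cell renewal, had 8.38 and 9.05 in WT and 16.2 and 8.95 in KO, and Rara, a retinoic acid receptor, 10.5 and 12.7 in WT and 19.7 and 12.2 in KO. Prdm9, which sets meiotic recombination sites, had 11.5 and 6.64 in WT and 15.2 and 9.59 in KO. Before centring KO replicate 1 was the highest at all 4 of these genes. Id4, a marker of spermatogonial stem cells, was called in KO only, at 6.58 and 3.84, and no longer so with the same number of peaks. Msh4, a meiotic mismatch repair protein, was called within 1 kb in WT only, at 5.24 and 3.62, in regions that did not overlap each other. Gfra1, the GDNF co-receptor, was called in KO replicate 1 alone (3.54), and Thy1, the gene used for the sort, in no library. Shared promoters of undifferentiated spermatogonia (4) and meiotic prophase (6) had median centred log2 differences of -0.24 and -0.21, and those of differentiating spermatogonia (9) 0.04, with 0 past the adjusted threshold.

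Promoters of somatic testis cell markers carried H3K27ac in the same libraries, and also in those of the other germ cell stages. The purity of the cells was not tested. Vim, an intermediate filament of mesenchymal cells, had promoter fold enrichments of 16.2 and 13.3 in WT and 25.8 and 18.5 in KO, and Fbn1, the matrix protein fibrillin, 13.6 and 12.1 in WT and 18.2 and 17.3 in KO. Tcf21, a factor of stromal progenitors, had 13.6 and 6.64 in WT and 20.8 and 10.2 in KO. Gata4 and Nr5a1, factors of Sertoli and steroidogenic cells, were called in all 4 libraries too. Of 13 fibroblast and stromal promoters 9 were called in all 4 libraries, of 18 Sertoli cell promoters 5, of 12 Leydig cell promoters 3, of 11 peritubular myoid promoters 5, of 11 endothelial promoters 1, and of 13 macrophage and blood promoters 0. Over all genes the share was 53.5%, which the fibroblast and stromal list (69.2%) exceeded and the other somatic lists did not. Of 74 somatic promoters on no germ cell list, 27 were called in no Thy1+ library. In c-Kit+ cells 35 and 27 of the 74 were called in WT and 37 and 25 in KO. In KO pachytene spermatocytes the counts were 47 and 40, and in KO round spermatids 41 and 36. In bulk samples a different share of a cell type and a different level of the mark per cell cannot be told apart.

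Of these 74 somatic promoters, 30 and 24 were called in WT and 46 and 30 in KO, and 35 and 28 in KO with the same number of peaks per library. The shares were 40.5% and 32.4% in WT and 62.2% and 40.5% in KO. Over all genes they were 59.7% and 56.4% in WT and 68.0% and 58.8% in KO. Summed fold enrichment over the 74 was 241.0 and 167.7 in WT and 465.8 and 250.7 in KO, and over the 66 germ cell promoters 256.2 and 184.0 in WT and 453.6 and 157.3 in KO. As a share of the sum over all 17867 genes, the germ cell promoters held 0.219% and 0.195% in WT and 0.232% and 0.137% in KO, and the somatic promoters 0.206% and 0.178% in WT and 0.238% and 0.218% in KO. The germ cell share was thus low in KO replicate 2 and highest in KO replicate 1. The 6 Sertoli cell promoters called in KO replicate 2 were fewer than the 10 and 8 in WT, unlike the pooled somatic count. KO-only promoter calls were found at 4 of the 74 somatic genes (5.41%) and 1 of the 66 germ cell genes (1.52%), against 1.43% of all genes. Among the 4 were Lhcgr, the luteinizing hormone receptor of Leydig cells (5.57 and 4.48), Tagln, an actin-binding protein of smooth muscle (5.57 and 5.12), and Ptprc, the pan-leukocyte antigen CD45 (5.06 and 4.48). At Ptprc the peaks with these values did not overlap each other, and the KO replicate 1 peak in the KO-only region had 4.56. None of the 4 stayed KO-only with the same number of peaks per library. Among macrophage and blood genes, Cd68, Spi1 and Lck were called in KO replicate 1 alone, Adgre1, Csf1r and Itgam in no library, and WT libraries called 0 of the 13. The part of cell composition in the KO-only calls was not tested.

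**Figure D5:**
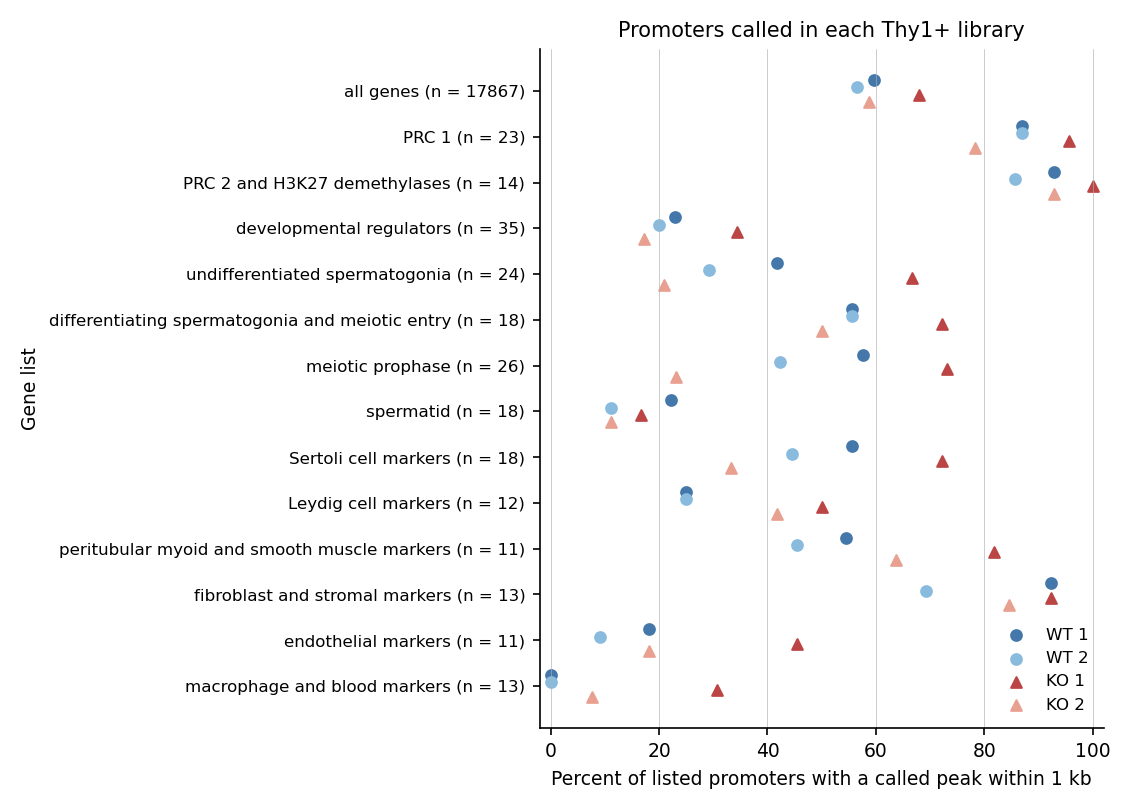
Percent of the promoters of each gene list (horizontal axis) with a called peak within 1 kb of a listed start in WT replicates 1 and 2 (circles) and KO replicates 1 and 2 (triangles), with the number of genes per list in parentheses; PRC is Polycomb repressive complex. KO replicate 2 is the lowest of the 4 libraries for undifferentiated spermatogonia (5 of 24), differentiating spermatogonia (9 of 18), meiotic prophase (6 of 26), Sertoli cells (6 of 18), PRC1 (18 of 23) and developmental regulators (6 of 35), but not over all 17867 genes.

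The KO-only regions were then looked up in c-Kit+ spermatogonia, the differentiating cells of the same age, whose libraries did not choose them. Their rates of being called there differed more between replicates than between genotypes. Of the 1820, 44.8% and 23.0% had a peak in c-Kit+ WT replicates 1 and 2, and 52.1% and 25.9% in c-Kit+ KO replicates 1 and 2. Over all regions the same shares were 45.4% and 34.03% in WT and 50.3% and 36.1% in KO. These include the 10646 regions called in all 4 Thy1+ libraries. Of those, 97.5% and 92.1% had a peak in c-Kit+ WT, and 98.3% and 92.3% in c-Kit+ KO. They raise the shares over all regions, which are therefore no like measure for the KO-only regions. The mean difference, KO minus WT, was 5.11 percentage points (39.0% ± 18.6 against 33.9% ± 15.4, SD, n = 2 each), less than the spread between replicates (2-sided exact permutation p = 0.667, adjusted p = 0.667; the smallest possible p is 0.333). It turned to -0.0824 points with the same number of peaks per library, to -5.77 without c-Kit+ WT replicate 2 and to -8.02 without c-Kit+ KO replicate 1. Over all 37552 regions the difference was 3.43 points.

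In KO pachytene spermatocytes, 67.0% and 58.4% of the KO-only regions had a peak in replicates 1 and 2, and in KO round spermatids 60.5% and 45.5%. The rates over all regions were 64.6% and 59.5%, and 61.0% and 52.4%. Those rates include the regions called in all 4 Thy1+ libraries, at 98.3% and 97.2%, and 97.8% and 96.1%. WT libraries of those adult cells were not analysed here. No peak in any of the 8 other H3K27ac libraries was found at 229 KO-only regions (12.6%), against 20.2% of all regions and 0.169% of regions called in all 4. The remaining KO-only regions had a peak in at least 1 of those 8 libraries.

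Both KO and neither WT library of c-Kit+ cells called 37 of the 1820 (2.03%), against 1.305% of all regions. Both WT and neither KO library called 17 (0.934%), against 0.418%. Among regions called in all 4 Thy1+ libraries these shares were 0.225% and 0.169%. The highest of the 37 lay upstream of Gnb1, a G protein beta subunit (chr4:155481834-155482155), with fold enrichments of 7.09 and 10.2 in Thy1+ KO and 4.26 and 7.00 in c-Kit+ KO. An intron of Etv6, an ETS family repressor (chr6:134222141-134222421), had 6.08 and 5.76 in Thy1+ KO and 5.67 and 4.66 in c-Kit+ KO, and a region upstream of Notch1, a receptor of juxtacrine signalling (chr2:26508050-26508261), 6.58 and 5.12, and 4.26 and 4.08. These 3 were named after their values were seen. No WT-only region was WT-only in c-Kit+ cells as well. Of the leading 15, Meis3 was called in c-Kit+ KO replicate 2 alone (4.08) and the region upstream of Ppp1r2 in no c-Kit+ library, whereas Sema7a, Map3k1, Itpr1, Prickle2, Tank, Rab6b, Ccndbp1 and 1810019D21Rik were called in all 4 c-Kit+ libraries.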

How the data were processed

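H3K27ac and input libraries were made by ChIPmentation, per the labels' protocols. Bowtie, MACS2 and the build mm10 are named in the submitters' processing notes, with no version or order; settings are not given in the sources used here. Each library had its own peak table, so replicates were not pooled. Per the file headers, a line gave a summit's height (the deposited signal), a fold enrichment (a deposited ratio), −log10 p and −log10 q, the listed RefSeq gene and a location class. Fold enrichment equalled height plus 1 over a library-wide background plus 1, so no local control entered it. Deposited coordinates, counted from 1, are used unchanged.

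The highest summit of each peak was kept, mitochondrial peaks were left out and peaks sharing at least 1 bp were merged. Regions called in all 4 libraries were tested with limma 3.58.1 (R 4.3.3) on log2 fold enrichment centred per library, checked on simulated data. Single values were compared by exact permutation tests (Python 3.11.15, numpy 2.4.6, pandas 2.3.3). Depth is unknown, so no counting interval was computed. Same-numbered libraries share only a number.

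Named genes were Scml2; the 5 lowest p in each direction; the 15 KO-only and 10 WT-only regions with the highest lower fold enrichment; list members with a KO-only or WT-only promoter and up to 4 called in all 4 libraries; and up to 8 genes with 3 or more KO-only regions. The lists cover undifferentiated and differentiating spermatogonia, meiotic prophase, spermatids, PRC1, PRC2, developmental regulators and 6 somatic cell types; 232 of 255 listed genes had a usable start. Members and lists were chosen with earlier results of these data known. Alternatives changed the peak threshold, the number of peaks, the overlap, the scaling, the input filter and the libraries used. A few results that met these rules are not reported here. Promoter sequences are RefSeq's, of GRCm38.p6.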

Additional observations from a re-analysis of the deposited data

How the results depend on the processing

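With the replicate number as a block, 0 of 10646 regions passed (629 at an unadjusted p under 0.05, limma); the differences in peak number (0.55), promoter share (-16.6) and c-Kit+ share (5.11) cannot change under it in this balanced design. The correlation of same-numbered libraries' deviations was 0.15 over 2 pairs. Of the other alternatives, keeping the regions called in inputs gave 1 region past the threshold, lower in KO, of 10835, and the rest, leaving out each library included, gave 0. The 10 regions with the lowest p, 5 in each direction, kept their direction in all 92 refits. These refits reuse the values that chose the regions, so the kept direction is no independent support. The number of KO-only regions was 624 with the same number of peaks per library and 702 when both calling peaks had to reach a fold enrichment of 5, and from 2320 to 18857 when 1 library was left out. The number of WT-only regions was 6 with a minimum fold enrichment of 5, 115 with the same number of peaks, 47 with an overlap of 50% of the shorter peak, 70 with input regions kept, 2 when both calling peaks had to reach 5, and from 39 to 1174 when 1 library was left out. KO-only promoters numbered 124 (0.694%) with the same number of peaks and 304 without KO replicate 1, both added after seeing the data. The c-Kit+ share difference turned to -0.0824 points with the same number of peaks and ranged from -8.02 to 18.2 points, with -5.77 without WT replicate 2, when 1 c-Kit+ library was left out. The causes were not tested. Peaks below heights of 5 or 6 are not in the tables, which limits every statement on a region not called.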

Other observations

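Promoters of steroidogenic and contractile cell genes outside the KO-only calls also differed by library. Myh11, the smooth muscle myosin heavy chain, and Star, the cholesterol transporter of steroid synthesis, were called in Thy1+ KO replicate 1 alone, at fold enrichments of 7.59 and 4.05. Acta2, smooth muscle actin, was called in all 4 libraries, at 4.72 and 5.43 in WT and 10.1 and 6.40 in KO. Pdgfrb, a receptor of pericytes and stromal cells, was called in WT replicate 1 (4.72) and both KO libraries (9.11 and 7.03), and in no c-Kit+ library. Lhcgr, called in KO only among Thy1+ libraries, was called in all 4 c-Kit+ libraries, at 7.41 and 6.20 in WT and 8.04 and 5.83 in KO. Medians of the centred log2 difference at shared promoters were -0.05 for Sertoli (5 genes), 0.13 for Leydig (3), 0.10 for peritubular myoid (5) and 0.04 for fibroblast markers (9), and the single endothelial promoter, Cdh5, had -0.20; 0 of these passed the adjusted threshold (limma) and 0 had an unadjusted p under 0.05.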
